A study of Mus musculus with 18 samples.

Results

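Site-1 Protease (S1P, encoded by Mbtps1) and 9 genes whose proteins work with it or are cut by it were followed across the gastrocnemius and soleus of mice with and without a muscle-specific deletion of S1P. The 10 genes are Mbtps1, Mbtps2, Scap, Srebf1, Srebf2, Insig1, Insig2, Atf6, Atf6b and Gnptab. They were taken by symbol from the 41388 genes of the deposited count tables. The rule uses no measured value, but the genes were picked with earlier results of these data known. All 10 were present, and all 10 passed the filter on low counts in every comparison.

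S1P is a membrane-anchored serine protease of the Golgi. With the second protease S2P (Mbtps2) it releases the active parts of transcription factors that wait in the membrane of the endoplasmic reticulum. The SREBPs, encoded by Srebf1 and Srebf2, turn on genes of fatty acid and cholesterol synthesis. SCAP carries them to the Golgi and the INSIG proteins hold SCAP back when sterols are plentiful. ATF6 and its relative ATF6B are cut in the same way when unfolded proteins accumulate, and then raise chaperone genes. S1P also cuts the precursor encoded by Gnptab, which is needed to put the mannose 6-phosphate tag on lysosomal enzymes. These cuts act on proteins, so mRNA counts do not measure them.

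The mice were 12 weeks old, ate chow and had been without food for 4 h when the muscles were taken. Controls had a floxed S1P gene and no Cre. The mice labelled knockout carried the same floxed gene and Cre driven by the human skeletal actin promoter (HSA-Cre), which is active in skeletal muscle fibres and not in the other cells of a muscle. All groups carried the floxed allele, and no group carried Cre alone, so loss of S1P and the presence of Cre cannot be told apart. By title there are 5 controls and 4 knockouts per muscle, or 18 libraries, although the series text states 4 per group. The labels do not say that the libraries came from separate mice, and p-values then measure the spread between these samples only. Whole muscle was used, so fewer cells of a type and less RNA per cell cannot be told apart.

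Library totals ran from 39.0 to 78.2 M counts (M, mega), and mitochondrial genes took 7.4 to 8.87% of counts in the gastrocnemius and 9.43 to 12.66% in the soleus. The labelled muscles carried their markers. The fast myosin gene Myh4 lay between 76700 and 91600 counts scaled to the same library total of 1 M (CPM) in the gastrocnemius controls and between 127 and 4440 CPM in the soleus controls. The slow myosin gene Myh7 lay between 346 and 530 CPM and between 8130 and 11500 CPM in the same groups. CPM here are scaled to trimmed-mean (TMM) library sizes over all 18 libraries. Gene differences are log2 fold changes with standard errors (SE) from edgeR's quasi-likelihood test, and a gene was called when its Benjamini-Hochberg adjusted p over all genes tested was under 0.05.

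The promoters of the SREBP genes and of Insig1 are shown because Srebf1 and Insig1 were the 2 genes whose gastrocnemius groups did not overlap, and Srebf2 is the other SREBP gene. SREBPs are known to act on promoters of this pathway. RefSeq (GRCm38.p6) gave promoter windows for 9 of the 10 genes, 14 windows in all, each from 250 bases before to 50 bases after a transcription start. Srebf1 has 3 annotated starts, at chr11:60222532-60222831, chr11:60220578-60220877 and chr11:60210422-60210721 on the minus strand. Srebf2 lies at chr15:82147019-82147318 and Insig1 at chr5:28071162-28071461, both on the plus strand. Sequences are written 5′ to 3′ on the strand of the gene, and capitals mark matches on either strand to a sterol regulatory element (TCACNCCA), an E-box (CACGTG) or a CCAAT box (CCAAT, or ATTGG on the other strand).
Srebf1 start 1: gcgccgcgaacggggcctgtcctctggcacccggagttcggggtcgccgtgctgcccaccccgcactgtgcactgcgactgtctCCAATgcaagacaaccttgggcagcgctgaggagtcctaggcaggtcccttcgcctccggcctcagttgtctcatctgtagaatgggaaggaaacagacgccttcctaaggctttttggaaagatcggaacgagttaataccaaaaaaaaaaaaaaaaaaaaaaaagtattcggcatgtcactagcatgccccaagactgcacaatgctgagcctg
Srebf1 start 2: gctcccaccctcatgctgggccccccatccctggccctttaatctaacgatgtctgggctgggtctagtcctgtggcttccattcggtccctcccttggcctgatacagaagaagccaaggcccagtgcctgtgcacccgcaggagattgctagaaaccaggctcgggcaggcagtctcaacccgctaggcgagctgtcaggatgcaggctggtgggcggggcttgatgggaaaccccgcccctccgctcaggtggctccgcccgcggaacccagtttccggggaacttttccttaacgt
Srebf1 start 3: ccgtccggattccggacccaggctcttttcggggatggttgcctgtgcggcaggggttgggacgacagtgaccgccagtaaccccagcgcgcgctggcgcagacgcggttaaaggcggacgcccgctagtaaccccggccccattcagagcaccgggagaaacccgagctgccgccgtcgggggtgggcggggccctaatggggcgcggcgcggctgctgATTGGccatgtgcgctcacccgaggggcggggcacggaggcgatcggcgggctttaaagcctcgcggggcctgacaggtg
Srebf2: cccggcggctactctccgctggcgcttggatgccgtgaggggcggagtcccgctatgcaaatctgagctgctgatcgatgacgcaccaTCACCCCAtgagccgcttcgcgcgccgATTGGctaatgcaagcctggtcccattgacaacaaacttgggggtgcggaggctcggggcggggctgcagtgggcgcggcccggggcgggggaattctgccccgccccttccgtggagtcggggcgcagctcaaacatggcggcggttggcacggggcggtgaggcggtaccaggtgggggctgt
Insig1: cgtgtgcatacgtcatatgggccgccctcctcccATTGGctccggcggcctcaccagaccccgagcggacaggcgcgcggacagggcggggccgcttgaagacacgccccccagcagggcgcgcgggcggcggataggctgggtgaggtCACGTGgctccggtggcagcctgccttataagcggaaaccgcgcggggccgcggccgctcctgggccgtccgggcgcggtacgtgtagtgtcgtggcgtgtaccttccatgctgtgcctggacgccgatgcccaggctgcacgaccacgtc

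The Srebf2 window held the only exact match to the sterol regulatory element letters among the 14 windows, at position -162 from the start. It held a CCAAT box at -135. The Insig1 window held an E-box at -101 and a CCAAT box at -216. In Srebf1, a CCAAT box stood at -166 from start 1 and another at -30 from start 3, and start 2 held no match. Over all 32851 RefSeq promoter windows of this length, 4.36% held the sterol regulatory element, 7.15% the E-box and 37.4% the CCAAT box.  These matches describe letters only, and elements that depart from the searched letters were not looked for. The deposited counts are summed per gene, so a difference in Srebf1 could not be assigned to one of its 3 starts.

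Mbtps1 (ENSMUSG00000031835, chromosome 8, 119508156 to 119558761, minus strand, GRCm38) is the targeted gene and was examined first. In the gastrocnemius controls it stood at 33.1, 34.9, 29.7, 30.1 and 29.6 CPM (replicates 1, 3, 4, 5 and 8). In the gastrocnemius libraries labelled knockout it stood at 35.9, 34.7, 42.8 and 37.0 CPM (replicates 2, 6, 7 and 9). The groups overlapped only where control replicate 3 exceeded knockout replicate 6, and no library labelled knockout lay below the control range. The soleus controls held 31.7, 33.2, 30.5, 31.9 and 34.4 CPM (replicates 34, 36, 37, 38 and 41) and the soleus libraries labelled knockout 36.3, 31.0, 36.3 and 34.6 CPM (replicates 35, 39, 40 and 42). There the groups overlapped, with 3 of the 4 knockout libraries above every control.

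Mbtps1 mRNA over the whole gene was thus no lower in libraries labelled knockout than in controls. The mean was 31.5 ± 2.4 CPM (SD, n = 5) in the gastrocnemius controls and 37.6 ± 3.58 CPM (SD, n = 4) in the knockout group, a log2 difference of 0.25 (SE 0.08, 95% interval 0.08 to 0.43) with an edgeR adjusted p of 0.0945. In the soleus the difference was 0.10 (SE 0.07, interval -0.05 to 0.25), with an edgeR adjusted p of 0.754. Neither difference was called, and the gastrocnemius one also missed the threshold with DESeq2 (adjusted p 0.0685). Which exons the floxed allele removes was not given in the sources used here. A count over the whole gene includes reads from undeleted exons and from cells without Cre, so it cannot check the deletion, and the groups are called by their labels throughout.

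**Figure D1:**
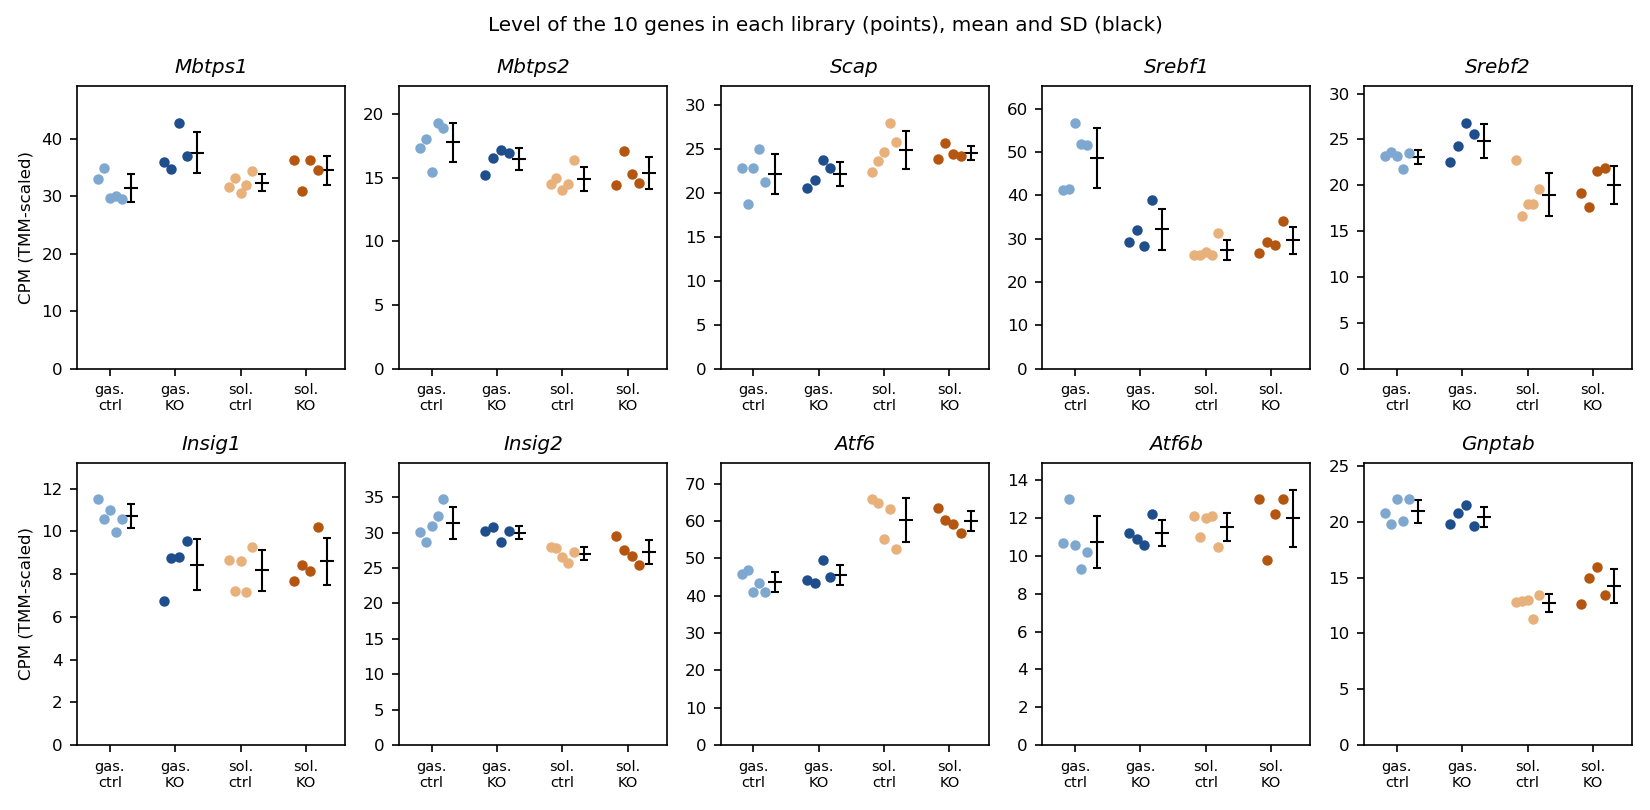
Level of the 10 genes in each library, in CPM on TMM-scaled library sizes, for gastrocnemius (blue) and soleus (orange), controls (light) and libraries labelled knockout (dark); black marks show the mean and SD of each group. Srebf1 was high in all 5 gastrocnemius controls (41.1 to 56.7 CPM) and at 26.1 to 38.9 CPM in the other groups, and Mbtps1 was no lower in libraries labelled knockout than in controls.

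In the gastrocnemius, 1 of the 10 genes was called between the libraries labelled knockout and the controls, where 3.78% of the 16393 genes tested were called (1.77% higher and 2.01% lower). That gene was Srebf1, which was lower. The median log2 difference of the 10 was -0.02, against 0.02 over all genes tested, and 5 of the 10 had a positive difference. At an unadjusted p under 0.05 stood 3 of the 10 (Srebf1, Insig1 and Mbtps1), against 18.6% of all genes tested. Srebf1 and Insig1 were the 2 genes whose groups did not overlap, against 8.41% of all genes tested.

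Srebf1 (ENSMUSG00000020538, chromosome 11, 60199089 to 60222581, minus strand) encodes SREBP-1, the SREBP known mainly for fatty acid synthesis. It stood at 41.1, 41.5, 56.7, 51.8 and 51.6 CPM in the gastrocnemius controls and at 29.2, 32.0, 28.3 and 38.9 CPM in the libraries labelled knockout. All 4 knockout libraries lay below the lowest control, with knockout replicate 9 closest to it. The group means were 48.5 ± 6.93 CPM (SD, n = 5) and 32.1 ± 4.81 CPM (SD, n = 4). Srebf1 fell by 0.59 on the log2 scale (SE 0.12, interval -0.85 to -0.34), to 0.663 of the control level, with an edgeR adjusted p of 0.0182. The call was lost without control replicate 5 (adjusted p 0.0519), knockout replicate 6 (0.0636) or knockout replicate 7 (0.0518), while the log2 difference stayed between -0.70 and -0.54 whichever library was left out.

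Srebf1 overlaps Rai1, a gene on the opposite strand with a mean count of 2792.9 against 1748.1 for Srebf1, and the exons of the pair share 109 bases. The strand setting of the counting was not given in the sources used here. Rai1 went from 47.5 ± 3.33 to 53.1 ± 2.36 CPM between the same groups, a log2 difference of 0.16 (SE 0.07, edgeR adjusted p 0.217), opposite in sign to that of Srebf1. None of the other 9 genes was overlapped by a gene with as much as 10% of its own count. That rule passes over Yy2, which had a mean count of 0.0. It shares 2867 bases with the 10105 exon bases of Mbtps2, on the same strand. Whether reads from those bases were counted for Mbtps2 was not tested.

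Insig1 (ENSMUSG00000045294, chromosome 5, 28071363 to 28078662, plus strand) encodes an anchor that holds SCAP in the endoplasmic reticulum and is itself a known SREBP target. It stood at 11.5, 10.6, 11, 9.99 and 10.6 CPM in the gastrocnemius controls and at 6.72, 8.76, 8.78 and 9.54 CPM in the libraries labelled knockout. Every knockout library was below every control, with control replicate 5 and knockout replicate 9 the closest pair. The log2 difference was -0.35 (SE 0.11, interval -0.57 to -0.12), and it missed the threshold with edgeR (adjusted p 0.0888) but passed it with DESeq2 (0.0321). Leaving out 1 library at a time gave edgeR adjusted p from 0.0788 to 0.18.

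Insig2 (ENSMUSG00000003721, chromosome 1, 121304353 to 121332589, minus strand) encodes the second anchor. It stood at 30.1, 28.7, 31.0, 32.4 and 34.7 CPM in the gastrocnemius controls and at 30.3, 30.8, 28.7 and 30.2 CPM in the libraries labelled knockout. The groups overlapped, with control replicates 4, 5 and 8 above every knockout library. The log2 difference was -0.06 (interval -0.21 to 0.09, edgeR adjusted p 0.706).

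The other SREBP gene, the escort and the second protease differed by little in the gastrocnemius. Srebf2 (ENSMUSG00000022463, chromosome 15, 82147266 to 82205376, plus strand) encodes SREBP-2, the SREBP known mainly for cholesterol synthesis, and it stood at 21.8 to 23.6 CPM in the controls and 22.5 to 26.8 CPM in the libraries labelled knockout. Its log2 difference was 0.11 (interval -0.05 to 0.26, edgeR adjusted p 0.469), of the opposite sign to Srebf1. Scap (ENSMUSG00000032485, chromosome 9, 110333288 to 110384946, plus strand), the escort, stood at 18.8 to 25 CPM in the controls and 20.6 to 23.8 CPM in the knockout group, a log2 difference of 0.00 (interval -0.18 to 0.19). Mbtps2 (ENSMUSG00000046873, chromosome X, 157535371 to 157598715, minus strand), the protease that makes the second cut, stood at 15.4 to 19.3 and 15.2 to 17.2 CPM, a log2 difference of -0.11 (interval -0.29 to 0.06). Neither was called (edgeR adjusted p 0.987 and 0.517).

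The substrates outside the SREBP branch were not called either. Atf6 (ENSMUSG00000026663, chromosome 1, 170704674 to 170867771, minus strand) encodes the stress sensor, Atf6b (ENSMUSG00000015461, chromosome 17, 34647146 to 34655074, plus strand) its relative, and Gnptab (ENSMUSG00000035311, chromosome 10, 88379132 to 88447329, plus strand) the precursor of the lysosomal tagging enzyme. Atf6 stood at 40.9 to 46.9 CPM in the gastrocnemius controls and 43.5 to 49.5 CPM in the knockout group, and Atf6b at 9.3 to 13.0 and 10.6 to 12.2 CPM. Their log2 differences were both 0.06, with intervals of -0.08 to 0.21 and -0.16 to 0.29. Gnptab stood at 19.8 to 22 and 19.6 to 21.5 CPM, with a log2 difference of -0.03 (interval -0.18 to 0.12). For these 3 genes the intervals leave room for changes of up to 0.29 on the log2 scale, which these libraries could not separate from 0.

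In the soleus, 0 of the 10 genes were called by edgeR between the libraries labelled knockout and the controls, where 0.0553% of the 18087 genes tested were called. None of the 10 passed at an unadjusted p under 0.05, against 8.19% of all genes, and DESeq2 also called 0 of the 10. The groups overlapped for every one of the 10, while 2.55% of all genes had groups without overlap. Their median log2 difference was 0.07 against 0.00 over all genes, and 8 of the 10 were positive.

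Srebf1 in the soleus stood at 26.2, 26.2, 26.8, 26.1 and 31.3 CPM in the controls and at 26.6, 29.1, 28.5 and 34.0 CPM in the libraries labelled knockout. Control replicate 41 was above 3 of the 4 knockout libraries, and knockout replicate 42 was the highest of all. The log2 difference was 0.12 (SE 0.09, interval -0.06 to 0.31, edgeR adjusted p 0.775).

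Gnptab had the largest difference of the 10 in the soleus. It stood at 12.8, 12.9, 13.0, 11.3 and 13.4 CPM in the controls and at 12.6, 15, 15.9 and 13.4 CPM in the libraries labelled knockout. The log2 difference of 0.17 (interval -0.02 to 0.37) had an edgeR adjusted p of 0.648, and the groups overlapped through knockout replicates 35 and 42. Insig1 stood at 7.15 to 9.28 CPM in the soleus controls and 7.69 to 10.2 CPM in the knockout group, a log2 difference of 0.08 (interval -0.16 to 0.33). The remaining genes differed by -0.02 (Scap) to 0.10 (Mbtps1), with edgeR adjusted p of 0.754 or more.

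**Figure D2:**
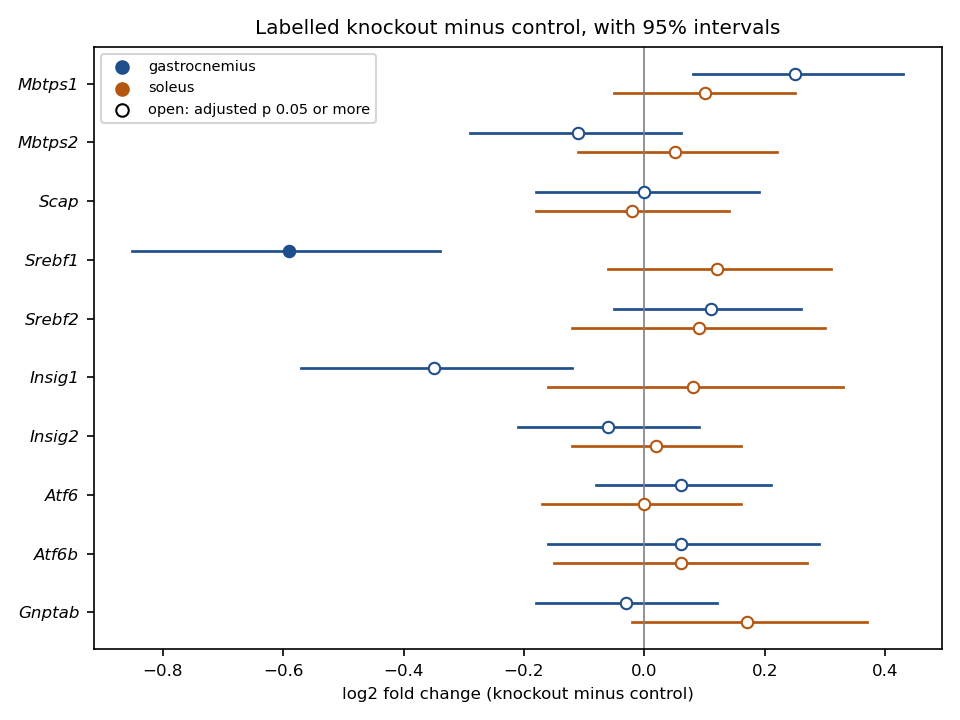
Log2 fold change between libraries labelled knockout and controls for the 10 genes, in the gastrocnemius (blue) and the soleus (orange), with 95% intervals; filled points are adjusted p under 0.05 (edgeR). Only the gastrocnemius point of Srebf1, at -0.59, is filled, and the soleus points lie between -0.02 and 0.17.

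The difference between the muscles was tested directly as an interaction, the soleus knockout effect minus the gastrocnemius knockout effect. For Srebf1 it was 0.71 (SE 0.15, interval 0.40 to 1.02), the largest of the 10, and it missed the threshold over all 18494 genes with edgeR (adjusted p 0.0982). It passed with DESeq2 (0.00793), without the filter on low counts (0.0442) and without gastrocnemius knockout replicate 9 (0.0241), and not with limma voom (0.121). It also passed with a replicate block (0.00853) in which each soleus number less 33 was taken as the number of a gastrocnemius, a pairing that no label states. Over all libraries left out in turn the edgeR adjusted p ran from 0.0241 to 0.249. For Insig1 the interaction was 0.42 (SE 0.16, interval 0.10 to 0.74, edgeR adjusted p 0.739), and the other 8 genes had adjusted p of 0.964 or more. So 0 of the 10 were called by the unpaired edgeR fit and 2 had an unadjusted p under 0.05, against 0.0703% and 5.4% of all genes. DESeq2 called 1 of the 10. Over all genes DESeq2 called 54 and edgeR 13.

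The S1P genes were next compared between the muscles of control mice. Soleus minus gastrocnemius, 7 of the 10 genes were called, 1 higher and 6 lower, in a comparison where 49.3% of the 18494 genes tested were called (27.4% higher and 21.9% lower). The median log2 difference of the 10 was -0.24, against 0.08 over all genes. The groups did not overlap for 5 of the 10, against 36.7% of all genes. All 7 calls were kept when each of the 10 control libraries was left out in turn. The soleus numbers are the gastrocnemius numbers plus 33 in the same genotype order, but no label ties a soleus to a gastrocnemius of the same mouse, so this comparison was not paired.

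Srebf1 was the most different of the 10. It stood at 27.3 ± 2.24 CPM (SD, n = 5) in the soleus controls and 48.5 ± 6.93 CPM (SD, n = 5) in the gastrocnemius controls, a log2 difference of -0.83 (SE 0.10) with an edgeR adjusted p of 5.26e-07. The highest soleus control, at 31.3 CPM, lay below the lowest gastrocnemius control, at 41.1 CPM. Srebf2 was lower in the soleus by a smaller step, at 22.7, 16.6, 18, 17.9 and 19.6 CPM against 21.8 to 23.6 CPM in the gastrocnemius. Soleus replicate 34 reached into the gastrocnemius range. Srebf2 fell by 0.28 on the log2 scale (SE 0.08, edgeR adjusted p 0.00631).

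Both INSIG genes were lower in the soleus of controls, each without overlap. Insig1 was at 7.15 to 9.28 CPM in the soleus and 9.99 to 11.5 CPM in the gastrocnemius, a log2 difference of -0.39 (SE 0.10, edgeR adjusted p 0.00328). Insig2 was at 25.7 to 27.9 CPM against 28.7 to 34.7 CPM, a log2 difference of -0.21 (SE 0.06, edgeR adjusted p 0.00593). Scap, which the INSIG proteins bind, was at 22.4 to 28 CPM in the soleus and 18.8 to 25 CPM in the gastrocnemius. Its difference of 0.17 was not called (edgeR adjusted p 0.0631), although it passed without gastrocnemius control replicate 5 (0.0248) or soleus control replicate 34 (0.0313), and with the replicate block from the number offset (0.0427).

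Gnptab and Atf6 went in opposite directions between the muscles. Gnptab stood at 20.8, 19.8, 22, 20.1 and 22 CPM in the gastrocnemius controls and at 12.8, 12.9, 13.0, 11.3 and 13.4 CPM in the soleus controls. The soleus level was 0.606 of the gastrocnemius level, a log2 difference of -0.72 (SE 0.07, edgeR adjusted p 3.25e-08). Atf6 stood at 45.7, 46.9, 40.9, 43.4 and 41.0 CPM in the gastrocnemius controls and at 65.8, 64.7, 55.3, 63.1 and 52.6 CPM in the soleus controls. Every soleus library was above every gastrocnemius library, a log2 difference of 0.47 (SE 0.07, edgeR adjusted p 7.22e-06). Atf6b did not share this pattern, with a difference of 0.10 (interval -0.10 to 0.29, edgeR adjusted p 0.401).

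The 2 proteases differed from each other in this comparison. Mbtps2 was lower in the soleus, at 14 to 16.4 CPM against 15.4 to 19.3 CPM, with some overlap and a log2 difference of -0.26 (SE 0.07, edgeR adjusted p 0.00638). Mbtps1 differed by 0.04 (interval -0.11 to 0.18, edgeR adjusted p 0.684), and its sign turned with the size factors of DESeq2.

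In the libraries labelled knockout, 3 of the 10 genes were called between the muscles, 1 higher and 2 lower, where 37.8% of all genes tested were called (19.2% higher and 18.5% lower). The 3 were Gnptab (log2 difference -0.52, edgeR adjusted p 2.52e-05), Atf6 (0.40, 0.000295) and Srebf2 (-0.31, 0.0104). These calls were kept when each of the 8 knockout libraries was left out in turn. The groups did not overlap for these 3 and for Scap, against 32.4% of all genes. Srebf1 stood at 29.6 ± 3.15 CPM in the soleus and 32.1 ± 4.81 CPM in the gastrocnemius (SD, n = 4 each), a log2 difference of -0.12 (interval -0.35 to 0.11, edgeR adjusted p 0.425). Insig1 differed by 0.03 (interval -0.21 to 0.27, edgeR adjusted p 0.873). Whether these muscle differences are smaller than in controls is the interaction test above, which called neither gene in the main unpaired edgeR fit. The Srebf1 interaction was called with DESeq2, without the filter on low counts, without gastrocnemius knockout replicate 9 and with the replicate block.

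**Figure D3:**
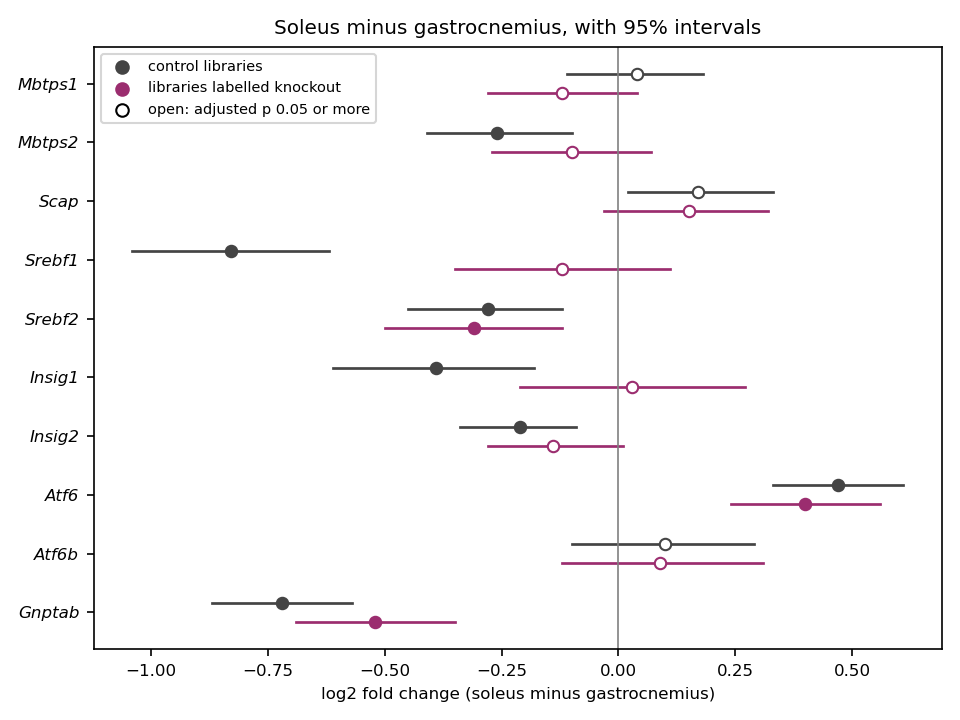
Log2 fold change between soleus and gastrocnemius for the 10 genes, for controls (grey) and knockout-labelled libraries (purple), with 95% intervals; filled points are adjusted p under 0.05 (edgeR). Gnptab, Atf6 and Srebf2 are filled in both, while Srebf1 is at -0.83 in controls and -0.12 in those labelled knockout.

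Levels were put in order across the 4 groups. Srebf1 was highest in the gastrocnemius controls, clear of the gastrocnemius knockout group (48.5 and 32.1 CPM), while the gastrocnemius knockout, soleus knockout and soleus control groups overlapped in turn. Atf6 fell into 2 sets, the soleus groups at 60.3 and 60.0 CPM and the gastrocnemius groups at 45.6 and 43.6 CPM. Gnptab did so in the reverse order, with the gastrocnemius groups at 20.9 and 20.4 CPM and the soleus groups at 14.2 and 12.7 CPM. For Mbtps1, Mbtps2, Srebf2, Insig1, Insig2 and Atf6b, every pair of neighbouring groups in the order overlapped. Within groups the spread was small for most genes. The coefficient of variation ran from 2.98% (Insig2, gastrocnemius knockout) to 15% (Srebf1, gastrocnemius knockout).

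To compare genes with each other, CPM were divided by the exon length in kilobases. In the gastrocnemius controls Insig2 (9.03 ± 0.66), Srebf1 (8.61 ± 1.23) and Mbtps1 (7.21 ± 0.55 CPM per kilobase, SD, n = 5) led the 10. Mbtps2, at 1.76 ± 0.151 CPM per kilobase, was the lowest, and it was lowest in all 4 groups. Its exon length includes the bases shared with Yy2. In the soleus controls the leading genes were Insig2 (7.78 ± 0.27), Mbtps1 (7.4 ± 0.343) and Atf6 (6.53 ± 0.645 CPM per kilobase), and Srebf1 followed at 4.85 ± 0.397. The other genes of the gastrocnemius controls lay between 3.56 (Gnptab) and 4.72 (Atf6) CPM per kilobase.

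Ratios between related genes within a library show the balance of each pair and do not depend on library scaling. The ratio of Srebf1 to Srebf2 per kilobase was 1.55 to 2.17 in the gastrocnemius controls and 0.934 to 1.35 in the gastrocnemius knockout group, with no overlap. It was 1.02 to 1.42 in the soleus controls and 1.18 to 1.46 in the soleus knockout group, which overlapped each other and the gastrocnemius knockout group. Thus the excess of Srebf1 over Srebf2 was largest in the gastrocnemius controls, with a mean ratio of 1.87 ± 0.291 (SD, n = 5). The ratio of Mbtps1 to Mbtps2 was 3.61 to 4.5 in the gastrocnemius controls and 4.86 to 5.76 in the knockout group, also without overlap, and 4.85 to 5.11 and 4.2 to 5.81 in the soleus groups. The ratio of Insig2 to Insig1 was 2.03 to 2.54 and 2.46 to 3.5 in the gastrocnemius groups and 2.27 to 2.99 and 1.94 to 2.98 in the soleus groups. The ratio of Atf6 to Atf6b had means of 1.22 in both gastrocnemius groups and 1.56 and 1.51 in the soleus controls and knockouts. These ratios were not tested, since they rest on the same counts as the tests of each gene.

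**Figure D4:**
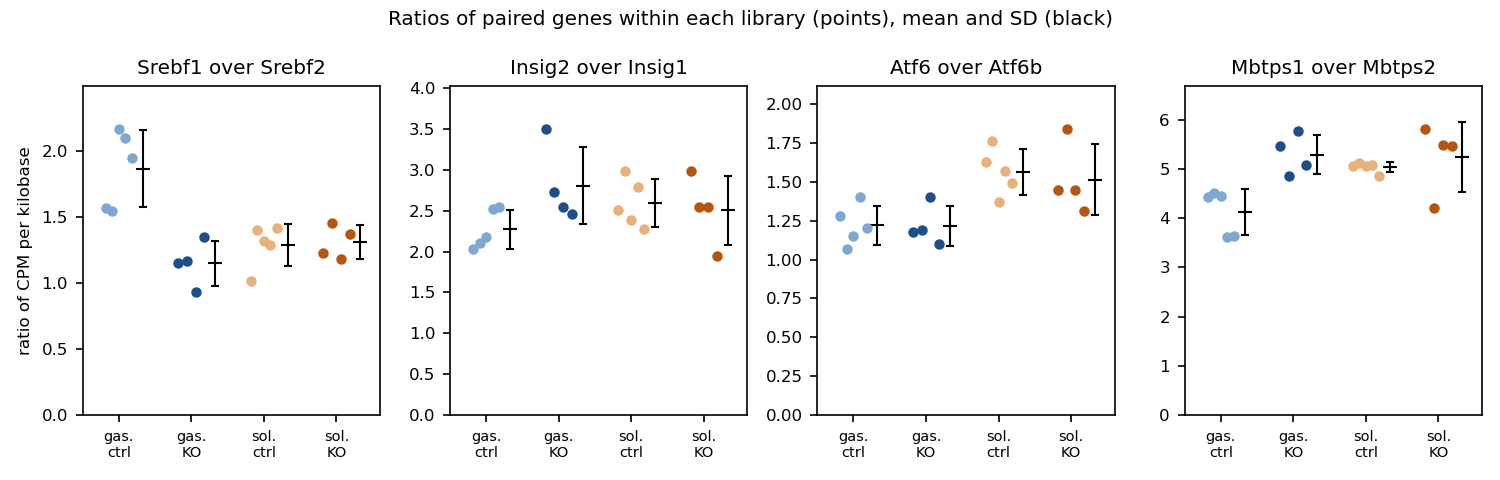
Ratio of CPM per kilobase between 4 pairs of related genes in each library (points), with the mean and SD of each group (black). Srebf1 over Srebf2 is 1.55 to 2.17 in the gastrocnemius controls and 0.934 to 1.46 in the other groups.

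Likeness of pattern was described by Pearson's r of log2(CPM + 0.5) over the 18 libraries, among 12030 genes with a mean of at least 1 on that scale. The libraries share groups and muscles, so r reflects those differences and was not tested. The 5 genes most like Srebf1 were Rnaset2a (r = 0.931), Bex1 (0.924), Rad23b (0.914), Scn4b (0.912) and Zfp651 (0.893). Each was highest in the gastrocnemius controls, for example Scn4b at 498 CPM against 391, 363 and 333 CPM in the gastrocnemius knockout, soleus control and soleus knockout groups. Rnaset2a has a near-identical copy and its counts are uncertain. Among the 10 genes, r with Srebf1 was highest for Insig1 (0.804) and lowest for Atf6 (-0.802). The 5 genes most like Mbtps1 were Src (0.872), Fcer1g (0.859), Rab43 (0.847), Fam171a2 (0.832) and Vat1 (0.831), each highest in the gastrocnemius knockout group. Mbtps1 and Mbtps2 had an r of -0.05.

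The list of other S1P substrates held the CREB3 family, the prorenin receptor Atp6ap2, the kinase Fam20c and Bdnf, with the S1P cofactor Spring1. Of its 9 genes, 8 were tested. In both knockout comparisons edgeR and DESeq2 called 0 of the 8. At an unadjusted p under 0.05 stood 0 (gastrocnemius) and 1 (soleus), against 18.6% and 8.19% of all genes tested. The median log2 differences were 0.13 and 0.11, against 0.02 and 0.00 over all genes. Spring1, which helps S1P mature, was at 13.0 ± 0.71 CPM in the gastrocnemius controls and 12.0 ± 0.969 CPM in the knockout group (log2 difference -0.11, edgeR adjusted p 0.573). Creb3l2, a substrate that acts in secretory cells, was at 33.6 ± 3.28 and 36.6 ± 1.27 CPM (0.12, 0.44). Creb3l3 was not tested, at mean levels of 0.0684 to 0.111 CPM.

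The SREBP target lists held 1 call each in the gastrocnemius, where 3.78% of all genes tested were called. Of 18 genes of fatty acid synthesis 1 was called, lower, and the list's median log2 difference was -0.02 against 0.02 over all genes. At an unadjusted p under 0.05 stood 6 of the 18, against 18.6% of all genes. That gene, Me1, encodes the cytosolic malic enzyme that supplies NADPH. It was at 164 ± 13.4 CPM in the controls and 118 ± 10.3 CPM in the knockout group, and fell by 0.47 on the log2 scale (SE 0.08, edgeR adjusted p 0.00598), a call kept whichever library was left out. Fasn, the fatty acid synthase, was at 41.1 ± 7.88 and 36.6 ± 3.93 CPM (-0.17, edgeR adjusted p 0.548), and the desaturase Scd1 at 78.2 ± 33.8 and 64.6 ± 25.6 CPM (-0.28, 0.775).

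Of 21 genes of cholesterol synthesis and uptake 1 was called, lower, with a list median of 0.01 against 0.02 over all genes. At an unadjusted p under 0.05 stood 2 of the 21, against 18.6% of all genes tested. Hsd17b7, a sterol 3-ketoreductase, went from 7.38 ± 0.952 to 4.85 ± 0.761 CPM, a log2 difference of -0.60 (SE 0.14, edgeR adjusted p 0.0297). Its call was lost in the fit of all 18 libraries (adjusted p 0.113), and without control replicate 3, 5 or 8 or knockout replicate 6 (0.0522 to 0.0934).

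Of 19 genes for SREBP escort, retention and turnover edgeR called 0, with a list median of -0.07 against 0.02 over all genes. At an unadjusted p under 0.05 stood 3 of the 19, against 18.6% of all genes tested. Those 3, named after their values were seen, were the COPII coat genes Sec23a, Sar1a and Sar1b, each lower. The other coat genes of the list went both ways on the log2 scale. Sec24a (-0.19), Sec24b (-0.08) and Sec24c (-0.10) were lower, and Sec23b (0.09) and Sec24d (0.14) higher. Sec23a was at 84.2 ± 7.24 CPM in the controls and 69.2 ± 6.04 CPM in the knockout group (log2 difference -0.28, SE 0.08, edgeR adjusted p 0.0589). DESeq2, the fit without the filter on low counts and the fit of all 18 libraries each called 1 of the 19.

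The list of ER chaperone and folding genes includes known ATF6 targets and is not limited to them. Among its 22 genes, edgeR and DESeq2 called 0 in the gastrocnemius, and 1 had an unadjusted p under 0.05, against 18.6% of all genes tested. Their median was -0.01. Hspa5, the major ER chaperone, was at 129 ± 9.77 CPM in the controls and 114 ± 14.9 CPM in the knockout group (-0.17, edgeR adjusted p 0.304).

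Among 30 genes of mannose 6-phosphate tagging and lysosomal enzymes 1 was called, lower, a share near the 3.78% of all genes. DESeq2, the fit without the filter on low counts and the fit of all 18 libraries each called 2, and 0 to 3 were called with a library left out. At an unadjusted p under 0.05 stood 8 of the 30, against 18.6% of all genes, while 21 of the 30 had a positive difference and the median was 0.12. Gaa, the lysosomal acid alpha-glucosidase that breaks down glycogen, went from 363 ± 20.3 to 299 ± 13.5 CPM, a log2 difference of -0.28 (SE 0.06, edgeR adjusted p 0.03). This call was lost without control replicate 1, 4, 5 or 8 or knockout replicate 6 or 9 (0.0512 to 0.11). Gnptg, the partner subunit of the Gnptab product, was at 6.7 ± 0.738 and 6.46 ± 0.994 CPM. Nagpa, which uncovers the tag, was at 7.57 ± 0.696 and 8.58 ± 1.2 CPM, and neither was called (edgeR adjusted p 0.879 and 0.432).

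In the soleus edgeR called 0 genes of these 5 lists, whose medians ran from -0.07 to 0.07. At an unadjusted p under 0.05 stood 1 of the escort genes, 2 of the cholesterol genes, 1 of the fatty acid genes, 0 of the chaperones and 5 of the lysosomal genes, against 8.19% of all genes. DESeq2 called 1 lysosomal gene and 0 in the other lists. The interaction test called 0 in each of the 5 lists with edgeR and with DESeq2, and 0 to 2 genes a list had an unadjusted p under 0.05, against 5.4% of all genes.

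**Figure D5:**
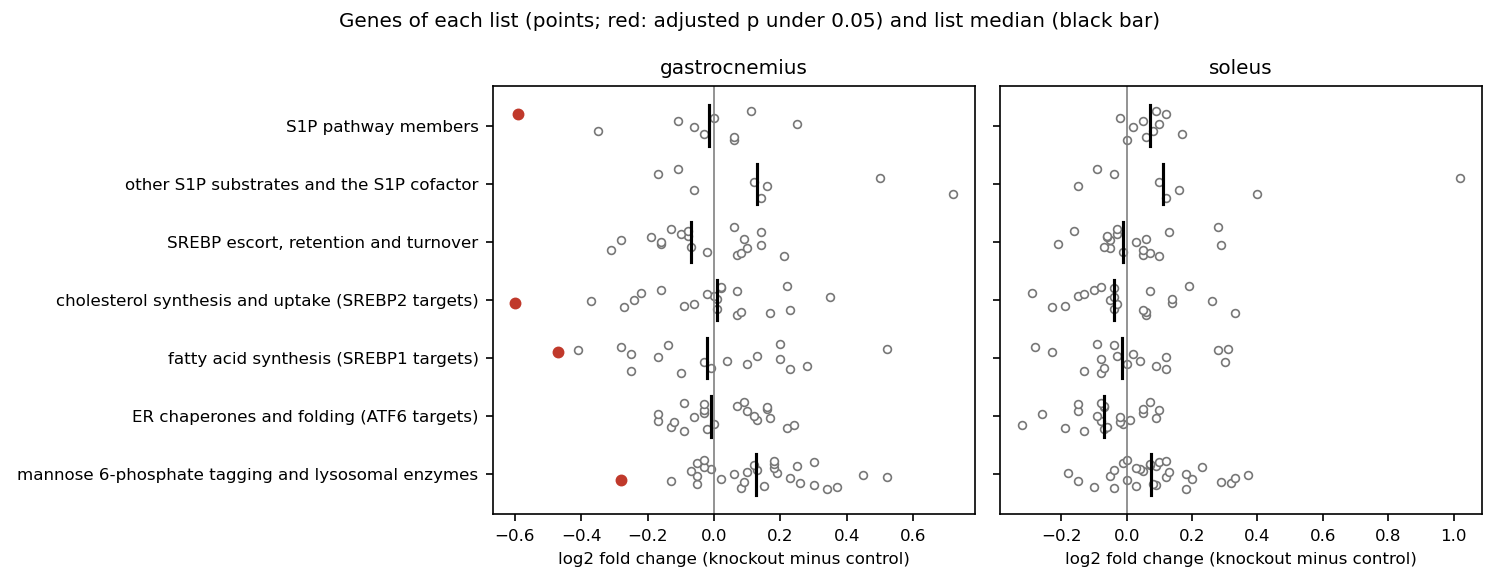
Log2 fold change between libraries labelled knockout and controls for each tested gene of 7 lists (points), in the gastrocnemius and the soleus, with red points for adjusted p under 0.05 (edgeR) and a black bar at each list's median. The 4 red points are Srebf1, Hsd17b7, Me1 and Gaa, all lower and all in the gastrocnemius, while the medians stay between -0.07 and 0.13.

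Between the muscles of controls the same lists held calls in both directions, as did all genes tested (27.4% higher and 21.9% lower). Soleus minus gastrocnemius, 3 of the 8 other substrate and cofactor genes were higher and 4 lower, with a median of -0.21 against 0.08 over all genes. Bdnf was at 4.72 ± 1.09 CPM in the soleus and 0.87 ± 0.477 CPM in the gastrocnemius (log2 difference 2.44, edgeR adjusted p 4.54e-06). Atp6ap2 was at 11.4 ± 0.661 and 7.75 ± 1.2 CPM (0.55, 0.000165) and Spring1 at 18.7 ± 1.28 and 13.0 ± 0.71 CPM (0.53, 1.49e-06). Creb3l1, a substrate tied to collagen secretion, was lower, at 5.69 ± 1.04 and 11.7 ± 2.69 CPM (-1.04, 2.01e-05), and Creb3l2 was lower by 0.23 (0.0176, lost at 0.0671 without gastrocnemius control replicate 1).

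Among the 19 escort genes 2 were higher and 6 lower in the soleus (median -0.04). The 3 largest differences among the called genes were those of Sar1b, Sec24a and Sec23a, which encode parts of COPII, the vesicle coat that carries SCAP and SREBP out of the endoplasmic reticulum. Sar1b, a GTPase of the coat, was at 57.4 ± 6.24 CPM in the soleus and 226 ± 19.5 CPM in the gastrocnemius (-1.98, edgeR adjusted p 7.28e-13). Sec24a was at 45.1 ± 5.77 and 84.2 ± 2.83 CPM (-0.90, 1.81e-06) and Sec23a at 49.3 ± 0.766 and 84.2 ± 7.24 CPM (-0.77, 9.17e-09). The coat genes of the list did not all go this way. Sec24b was lower (-0.22, 0.00853) and Sar1a higher (0.22, 0.026), while Sec23b (0.17), Sec24c (-0.06) and Sec24d (-0.01) were not called.

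Of the 21 cholesterol genes 3 were higher and 6 lower in the soleus (median -0.06). Mvd, an enzyme of the mevalonate steps, was higher (1.87, edgeR adjusted p 4.94e-07), while Hsd17b7 (-1.85, 1.42e-07) and Sc5d (-0.79, 5.32e-07), which act late in the pathway, were lower. Of the 18 fatty acid genes 5 were higher and 6 lower (median -0.03). Acss2 (1.44, 8.82e-12) and Acaca (1.04, 3.04e-09), which make acetyl-CoA and malonyl-CoA, were higher, and Me1 (-2.02, 1.07e-14) and Fasn (-0.57, 0.0103) lower. Scd1 was not called (0.17, 0.682).

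Of the 22 ER chaperone and folding genes 5 were higher and 5 lower in the soleus (median -0.03). Canx (0.47, edgeR adjusted p 3.57e-06) was higher and Herpud1 (-0.65, 5.29e-07) lower, calls kept whichever control was left out. Hspa5 (0.42, 0.0185) and Manf (0.49, 0.0289) were higher, but both calls were lost without soleus control replicate 34 (0.0532 and 0.0922). That of Manf was also lost without gastrocnemius control replicate 3, 4, 5 or 8 (0.0515 to 0.0669) and without the filter on low counts (0.0605), and that of Hspa5 in the fit of the 10 control libraries (0.059).

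Of the 30 mannose 6-phosphate and lysosomal genes 6 were higher and 12 lower in the soleus (median -0.18), against 27.4% and 21.9% of all genes. Gaa was at 148 ± 9.57 CPM in the soleus and 363 ± 20.3 CPM in the gastrocnemius (-1.29, edgeR adjusted p 1.37e-13), and Gla, the alpha-galactosidase, was lower too (-0.78, 0.000421). Lamp2, a lysosomal membrane protein, was higher (0.67, 1.94e-08). Gnptg was lower (-0.32, 0.02), a call lost without gastrocnemius control replicate 5 (0.0658) or soleus control replicate 41 (0.0567). Nagpa missed the threshold (-0.22, 0.0624) and passed it with the size factors of DESeq2 (0.032), with DESeq2 (0.023), in the fit of the 10 control libraries (0.0304) and with the replicate block from the number offset (0.0475).

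Markers of other cells were read in the same libraries, since the SREBP genes are also active in fat cells. Over all genes tested, 18.6% in the gastrocnemius and 8.19% in the soleus had an unadjusted p under 0.05. There edgeR called 3.78% and 0.0553% of all genes, and DESeq2 called 1232 and 166 genes. The summed level of 8 adipocyte markers was 147 to 237 CPM in the gastrocnemius controls and 145 to 205 CPM in the knockout group, and 189 to 324 and 179 to 214 CPM in the soleus groups. In the gastrocnemius 1 of the 8 had a positive difference (median -0.35), with 0 called by edgeR or DESeq2 and 2 at an unadjusted p under 0.05. The sum of 10 macrophage markers was 117 to 169 CPM in the gastrocnemius controls and 159 to 304 CPM in the knockout group, and 73.6 to 121 and 94.9 to 167 CPM in the soleus. In the gastrocnemius 9 of the 10 had a positive difference (median 0.64) and edgeR called 1, Itgam (0.69, adjusted p 0.0335), against 5 called by DESeq2. Of the 10, 8 had an unadjusted p under 0.05, against 18.6% of all genes tested. The call of Itgam was kept without knockout replicate 2 or 9 or control replicate 3, and lost without each of the other 6 libraries (0.0556 to 0.0916) and in the fit of all 18 (0.0686). In the soleus 1 of the 8 adipocyte markers (median -0.29) and 9 of the 10 macrophage markers (median 0.45) had a positive difference, with 0 called by edgeR or DESeq2 and 1 and 5 at an unadjusted p under 0.05.

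The sum of 8 fibroblast markers was 2720 to 4590 CPM in the gastrocnemius controls and 3660 to 5620 CPM in the knockout group. All 8 had a positive difference there (median 0.23), with 0 called by edgeR and 1 by DESeq2. Of the 8, 3 had an unadjusted p under 0.05, against 18.6% of all genes. In the soleus the sums were 1470 to 2350 and 1570 to 3320 CPM, with 7 of the 8 positive (median 0.31). There 0 were called by edgeR or DESeq2 and 1 had an unadjusted p under 0.05, against 8.19% of all genes. The sum of 9 slow-fibre genes was 968 to 1490 CPM in the gastrocnemius controls and 459 to 988 CPM in the knockout group. Of the 9, 1 was positive (median -0.74), and 6 had an unadjusted p under 0.05, against 18.6% of all genes. DESeq2 called 4 and edgeR called 1. Myl2, a slow myosin light chain, was that call (-0.95, edgeR adjusted p 0.0113, lost at 0.0588 without knockout replicate 7). In the soleus the slow-fibre sums were 20300 to 25200 and 13400 to 19700 CPM, with 1 of the 9 positive (median -0.34). Of the 9, 8 had an unadjusted p under 0.05, against 8.19% of all genes, and edgeR called 0 and DESeq2 called 2. The sum of 10 fast-fibre genes was 140000 to 166000 CPM in the gastrocnemius controls and 134000 to 148000 CPM in the knockout group. There 2 of the 10 were positive (median -0.18), 5 had an unadjusted p under 0.05, edgeR called 0 and DESeq2 called 2. In the soleus the fast-fibre sums were 21200 to 26700 and 15500 to 31300 CPM, with 7 of the 10 positive (median 0.27). Of these, 2 had an unadjusted p under 0.05, and edgeR and DESeq2 called 0. Among 6 satellite cell markers in the gastrocnemius 4 had a positive difference (median 0.6). Of these 6, 5 had an unadjusted p under 0.05, and DESeq2 called 3. The 2 called by edgeR were Pax7, which was higher (0.85, 0.0219), and Cdh15, which was lower (-0.32, 0.0446). The call of Pax7 was kept without knockout replicate 2 or control replicate 3 or 8, and lost without each of the other 6 libraries (0.0512 to 0.0775) and in the fit of all 18 (0.137), and that of Cdh15 without any 1 of the 9 (0.0528 to 0.128). No marker of these lists was at 0 in a whole group. Markers also differed between the muscles of controls, soleus minus gastrocnemius. Their medians were -0.65 (fibroblasts), -0.51 (macrophages), -0.72 (Schwann cells), 0.41 (endothelium), 0.49 (satellite cells) and 0.01 (adipocytes), against 0.08 over all genes. The part of cell types in the levels of the 10 genes, in the knockout comparisons or between the muscles, was not tested.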

How the data were processed

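Total RNA of snap-frozen muscle was extracted with RNA STAT-60, treated with DNase and depleted of ribosomal RNA, per the labels' protocols. The submitters' processing notes name STAR 2.5.1a, featureCounts 1.4.6-p5, bcl2fastq and Subread, and the build GRCm38. Not given in the sources used here were the annotation release and how strand and multi-mapped reads were treated.

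The authors deposited raw read counts per Ensembl gene for each library. The deposited CPM equalled these counts rescaled to the library total to within 4.9e-10, and the deposited RPKM equalled those CPM per kilobase of exon to within 4.1e-10, so only the counts were analysed. Symbols came from GENCODE mouse release 21 for 40254 of 41388 genes (97.3%).

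The tests were edgeR's robust quasi-likelihood fits (edgeR 4.0.16, R 4.3.3) with TMM sizes, after filterByExpr (min.count 10, min.total.count 15). P-values were adjusted by Benjamini-Hochberg over all genes tested, with a threshold of 0.05. Knockout comparisons used the 9 libraries of 1 muscle, and muscle comparisons and the interaction used all 18 in 4 groups. Every adjusted p is from edgeR unless DESeq2 (1.42.0) or limma voom (3.58.1) is named. Alternatives were edgeR's RLE size factors (those of DESeq2), DESeq2, no filter, other sets of libraries, limma voom for the interaction, and each library left out. A replicate block for the comparisons between muscles was added later. The chi-square per gene between replicates was 17.75 to 125.07, far from sampling noise, and no libraries were merged.

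On simulated counts for the gastrocnemius comparison, 98 of 100 genes changed by 1 on the log2 scale were recovered. For the interaction it was 70 of 100. Only changes of 1 and 2 were simulated, and the knockout differences and interactions of the S1P genes were all smaller than 1. Recovery of changes of that size was not tested, so these shares do not apply to the S1P genes that were not called.

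The 10 genes and the lists were chosen with earlier results of these data known. Named genes were the 10, every list gene called in a knockout comparison, up to 3 genes a pathway list with the largest called differences between control muscles (mean log2(CPM + 0.5) of at least 1), 7 fixed pathway genes, the genes most like Mbtps1 and Srebf1, and fibre genes that check the tissue. A few list genes are not reported here and were left out of the lists.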

Additional observations from a re-analysis of the deposited data

Results flagged for a closer look

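For each of the 10 genes, the highest and lowest library of every group was compared with its neighbours by Dixon's test at the 95% level, in 40 groups of libraries. In 2 of the 40 a library stood apart, and chance alone gives about 1 in 20. Soleus control replicate 41 was the highest for Srebf1, at 31.3 CPM against 26.1 to 26.8 CPM in the other 4 soleus controls. Gastrocnemius control replicate 5 was the lowest for Srebf2, at 21.8 CPM against 23.2 to 23.6 CPM in the other 4.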

How the results depend on the processing

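The count of genes called in the gastrocnemius (619) became 1232 with DESeq2 and ran from 206 to 1080 with a library left out. It fell over 1.5 times without control replicate 1 (261), 4 (278), 5 (206) or 8 (354) or knockout replicate 6 (211), 7 (287) or 9 (394), and rose without knockout replicate 2 (1080). The soleus count (10) became 166 with DESeq2, 48 without the filter and 28 in the fit of all 18 libraries, and ran from 3 (without control replicate 37) to 66 (without knockout replicate 35), with 4 without control replicate 34. The interaction count (13) became 54 with DESeq2 and ran from 2 (without soleus control replicate 37) to 23 (without gastrocnemius knockout replicate 2). A replicate block was added after seeing the data, with each soleus number less 33 taken as a gastrocnemius number. No label states this pairing, and the groups share no numbers. Across 18494 genes, deviations from the group means correlated within these 9 pairs at 0.08 to 0.434, over 0.1 in 8. In all 9 the value was above those of the same gastrocnemius library with the other soleus libraries of its genotype. The lowest pair, knockout replicates 6 and 39 (0.08), was still below 1 mismatched pairing of gastrocnemius knockout replicate 9 (0.088). This is a hint from the data and not the design. With the block the interaction count was 32. Among the 10 genes the block changed the calls of the Srebf1 interaction and of Scap between control muscles, both then passing, and no other, and Nagpa also passed between control muscles. With a library left out, the muscle counts ran from 8360 to 9213 in controls and from 5998 to 7108 in knockouts.

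Of 770 values recomputed for 50 results of the 10 genes, 718 kept direction and side of the threshold, 8 newly passed it, 3 no longer passed, and 41 changed sign, none of them called. With the RLE size factors, DESeq2 and no filter the gastrocnemius value of Scap was -0.0056, -0.0055 and -0.009. With the RLE size factors, DESeq2 and the 10 controls alone the muscle value of Mbtps1 was -0.003, -0.0034 and -0.0039. With the RLE size factors and DESeq2 the interaction was 0.0106 and 0.011 for Scap, 0.0097 and 0.0098 for Srebf2, and 0.026 and 0.0243 for Atf6b.

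With a library left out, sign changes gave these ranges. In the gastrocnemius they were -0.0461 to 0.0437 for Scap and -0.1572 to 0.0133 for Gnptg. In the soleus they were -0.0545 to 0.0299 for Scap, -0.0138 to 0.1418 for Insig1, -0.0084 to 0.0494 for Insig2, -0.0479 to 0.0283 for Atf6, -0.1701 to 0.2291 for Fasn and -0.0957 to 0.0284 for Gnptg. Between muscles of knockouts the range was -0.0689 to 0.0911 for Insig1. For the interaction they were -0.072 to 0.0462 for Scap, -0.0712 to 0.0513 for Srebf2, -0.1177 to 0.0042 for Atf6 and -0.0842 to 0.0799 for Atf6b. The cause of these changes was not tested. Of 648 values for the other named genes, 593 kept direction and side of the threshold. Counts of the 10 genes were 292 or more in every library. What depth and the number of libraries limit was not tested.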
